A study of Mus musculus with 18 samples.

Results

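Small RNA of the microglial fraction was compared between 3 homozygous Atxn2-CAG100-KIN mice (KIN) and 3 wild-type mice (WT), which makes 6 of the 18 libraries sequenced. Microglia are the resident macrophages of the brain, and the knock-in places an expanded CAG repeat, which encodes a long polyglutamine stretch, in the Atxn2 gene that causes spinocerebellar ataxia type 2 in humans. Both groups were C57BL/6 mice aged 10 months, the WT animals being littermates, and the mutation was present in every cell, so an effect on microglia may start in any brain cell. The cells were taken from dissociated single brains with CD11b magnetic beads as the first step of a sequential isolation that later gave the astrocyte and neuron fractions. Library totals lay between 3148211 and 4316748 counts. After tRNA gene copies were summed per isodecoder (a group of tRNA genes with the same mature sequence) and transcripts per gene, 5278 of 111192 features had 5 or more counts in 2 or more of the 6 libraries and were tested. Of the features just outside this filter 1102 had a second-highest count of 4, and of those just inside it 740 had 5.

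A level in CPM expresses a count relative to the total of its library, corrected for library composition by a TMM factor, and fold changes are log2 values of KIN against WT with their standard error, from edgeR's quasi-likelihood test. Calls needed a Benjamini-Hochberg adjusted p no higher than 0.05 together with a change of 1 or more on the log2 scale in either direction. The p-values measure the spread between these 6 libraries. The libraries of a group were not equally alike. Fewer features were detected in WT replicate 2 (12346) than in WT 1 and WT 3 (17029 and 17767), and fewer in KIN 1 (10238) than in KIN 2 and KIN 3 (13577 and 13187). The chi-square per degree of freedom was 6.67 between WT 1 and WT 3 and at least 70.5 between either of them and WT 2, and it was 9.96 between KIN 2 and KIN 3 but at least 134 between either of them and KIN 1. No library was thus a copy of another, and WT 2 and KIN 1 stood apart. For the called features described one by one, the omitted libraries that ended a call are named. The study's methods describe same-sex littermate pairs of both sexes, and the labels used here give no sex. Xist, expressed from the inactive X chromosome of females, measured 8.54, 11.7 and 8.35 CPM in WT and 1.71, 10.6 and 14.9 CPM in KIN, which does not divide the libraries into same-sex pairs. Together with the Y-linked genes Ddx3y, Eif2s3y, Kdm5d and Uty, it summed to 10.8, 12.1 and 12.0 CPM in WT. In KIN the sum was 5.97, 11.6 and 15.4 CPM. Of these 5 genes 2 were tested and 0 called, with log2 fold changes of −2.33 and −0.00045. A sex imbalance between the groups was not tested. Atxn2 itself gave 5, 3 and 10 counts in WT and 1, 2 and 3 in KIN (log2 fold change −1.30 ± 0.66, adjusted p = 0.25), which is no check of the labels, since the knock-in keeps the gene.

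A mature microRNA (miRNA) is cut from a hairpin precursor and guides Argonaute proteins to mRNAs, mainly by its seed, the bases after the first at the 5′ end. Small nucleolar RNAs (snoRNAs) of the C/D box kind carry the boxes named C and D, which bind the proteins that methylate ribosomal RNA, and transfer RNAs (tRNAs) deliver amino acids to the ribosome. In microglia and other macrophages, miR-155 and miR-146 are induced by inflammatory signalling, and miR-142 and miR-223 mark the myeloid lineage. The miRNAs on which the results turn are shown with bases 2 to 8, the seed, in capitals. They are printed 5′ to 3′ as the deposited table has them, with T for U, and shared seeds stand together because such miRNAs can recognise the same target sites. The first set was higher in KIN.
miR-155-5p: tTAATGCTaattgtgataggggt
miR-21a-5p: tAGCTTATcagactgatgttga
miR-146a-5p: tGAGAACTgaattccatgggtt
miR-146b-5p: tGAGAACTgaattccataggct
miR-221-3p: aGCTACATtgtctgctgggtttc
miR-222-3p: aGCTACATctggctactgggtct
miR-34a-5p: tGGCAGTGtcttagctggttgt
miR-210-3p: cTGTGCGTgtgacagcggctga
miR-211-5p: tTCCCTTTgtcatcctttgcct
The second set holds the miR-200 family, in which members with the same seed but from another chromosome behaved differently, and the cluster of miR-183, miR-96 and miR-182.
miR-200a-3p: tAACACTGtctggtaacgatgt
miR-141-3p: tAACACTGtctggtaaagatgg
miR-200b-3p: tAATACTGcctggtaatgatga
miR-429-3p: tAATACTGtctggtaatgccgt
miR-200c-3p: tAATACTGccgggtaatgatgga
miR-183-5p: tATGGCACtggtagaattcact
miR-96-5p: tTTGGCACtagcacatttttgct
miR-182-5p: tTTGGCAAtggtagaactcacaccg

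The main change among snoRNAs concerned Snord115 and Snord116, families of near-identical C/D box snoRNAs that lie in tandem within the noncoding host transcript Snhg14 in the imprinted region deleted in Prader-Willi syndrome. These are orphan snoRNAs, known for expression in neurons from the paternal chromosome. On GRCm39 (mm39) the Snord115 family spans chr7:58991974-59268843 on the minus strand with 137 gene copies, 33 of which share the sequence shown here, and the Snord116 family spans chr7:59323209-59572870 with 71 copies, 30 of them with the sequence shown. Capitals mark the C box motif TGATGA and the D box motif CTGA, searched on the transcribed strand. TGATGA is present in 137 of 137 Snord115 copies and 67 of 71 Snord116 copies, and CTGA in 135 and 71.
Snord115: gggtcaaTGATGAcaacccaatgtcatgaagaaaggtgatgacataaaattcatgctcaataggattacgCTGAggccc
Snord116: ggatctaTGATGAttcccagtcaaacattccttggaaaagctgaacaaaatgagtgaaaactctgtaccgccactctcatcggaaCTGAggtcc

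The first question was which small RNAs the mutation changed in microglia. Of 5278 features 321 were called (6.08%), of which 108 were higher (2.05%) and 213 lower (4.04%) in KIN. Of the 213 lower features 139 were snoRNAs, and 132 of these were near-identical copies inside Snhg14. When the copies were summed to 1 feature per family, 101 of 5111 features were called (1.98%), 68 higher (1.33%) and 33 lower (0.646%), and 99 of the 101 had been called before. Mature miRNAs were called higher in 53 of 382 (13.9%) and lower in 10, miRNA hairpins higher in 34 of 309 and lower in 11, and cytoplasmic tRNAs higher in 11 of 176 (6.25%) and lower in 0. Protein-coding genes, whose reads in such libraries are short fragments, were called higher in 5 and lower in 15 of 2632. Hairpins and miRNAs are not separate observations, since 36 of the 45 called hairpins held a called miRNA.

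**Figure D1:**
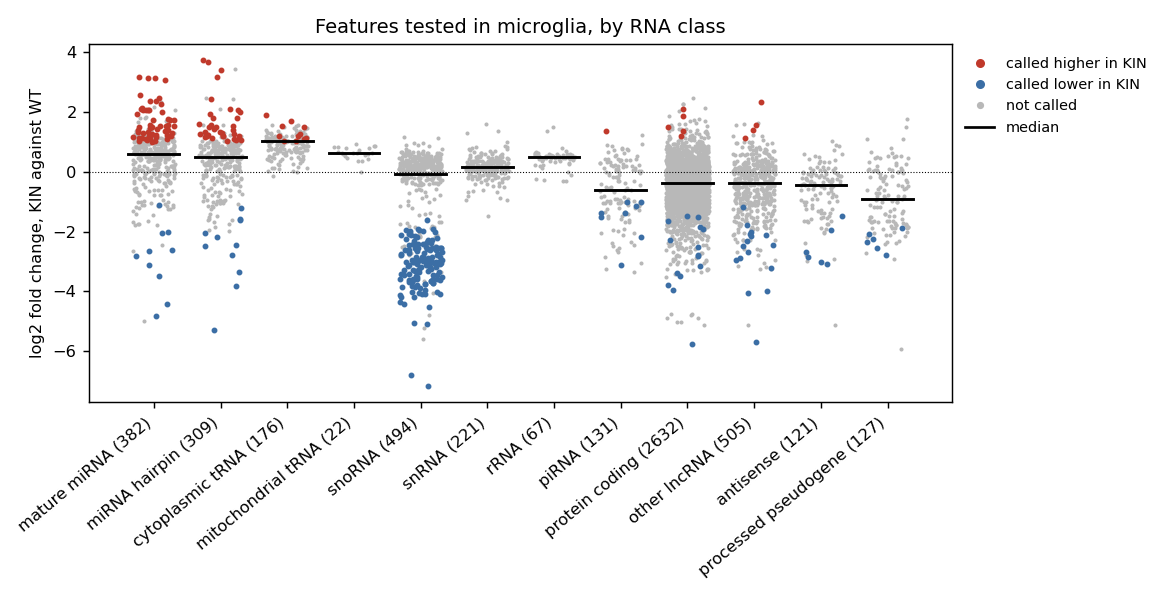
Each point is a feature tested in the 6 microglia libraries, placed by its log2 fold change of KIN against WT (y axis) within its RNA class (x axis, number tested in parentheses), with called features in colour and the class median as a bar. The medians of cytoplasmic tRNAs (1.02) and mature miRNAs (0.61) lay above that of all features (−0.15), and the 139 called snoRNAs formed a separate cloud below.

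Of the 321 calls 30 held in every fit that left out any single library, 15 of them higher and 15 lower in KIN. Beside 11 copies of Snord115 and Snord116 these were 9 mature miRNAs, 9 hairpins and Vmp1, a gene that holds the Mir21a hairpin in its transcript. The miRNAs were miR-155-5p, miR-21a-5p, miR-221-3p, miR-222-3p, miR-34a-5p, miR-210-3p and miR-211-5p, which were higher, and miR-200a-3p and miR-96-5p, which were lower. The other calls depended on at least 1 library, most often WT 1, without which 30 features were called in all.

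Most miRNAs known to respond to inflammatory stimuli were higher in KIN microglia. Of the list of 15 such miRNAs 13 were tested, 9 were called higher (69.2%, against 2.05% of all features and 13.9% of mature miRNAs) and 0 lower, with a median log2 fold change of 1.40 against 0.61 for mature miRNAs and −0.15 for all features. The list was chosen with earlier results of these data known, so these shares are no independent evidence. miR-155-5p, which promotes inflammatory signalling in macrophages (chr16:84511031-84511053, plus strand, inside the host transcript Mir155hg), measured 7.61, 13.7 and 7.74 CPM in WT and 48.7, 70.6 and 49.7 CPM in KIN. It was 5.89-fold higher (2.56 ± 0.33, adjusted p = 0.00158). Its host Mir155hg, at 5.54, 8.15 and 3.26 CPM in WT and 23.9, 36.5 and 24.0 CPM in KIN, was higher by 2.35 ± 0.37. All 3 KIN libraries lay above all 3 WT libraries for both. The Mir155hg call was lost without WT 1 (adjusted p = 0.0538). Mir155hg holds the called hairpin Mir155, so its counts may include reads of the miRNA and are no separate observation.

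miR-21a-5p, a widely expressed miRNA induced in activated glia and processed from the Vmp1 transcript (chr11:86474946-86474967, minus strand), measured 701, 1031 and 869 CPM in WT and 2826.5, 4745 and 3935 CPM in KIN. The difference was 4.42-fold (2.15 ± 0.31, adjusted p = 0.00234), and its passenger strand miR-21a-3p was 4.22-fold higher at no more than 6.62 CPM, a call lost without WT 1, WT 3 or KIN 3 (adjusted p of up to 0.1). miR-146a-5p and miR-146b-5p, which share a seed and restrain signalling downstream of Toll-like receptors, come from separate genes on chromosomes 11 and 19. miR-146a-5p measured 4713, 6690 and 4846 CPM in WT and 12460, 13644 and 13590 CPM in KIN, and miR-146b-5p 58.6, 84.8 and 67.0 CPM against 196, 274 and 252 CPM. Their log2 fold changes were 1.29 ± 0.29 and 1.78 ± 0.28 (adjusted p = 0.018 and 0.00346). The miR-146b-5p call was lost without WT 1 (adjusted p = 0.0538), and that of miR-146a-5p without WT 1, WT 3, KIN 2 or KIN 3, at an adjusted p of up to 0.149. miR-22-3p was called (1.40 ± 0.27), with the same 4 omissions bringing it to an adjusted p of up to 0.0875.

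**Figure D2:**
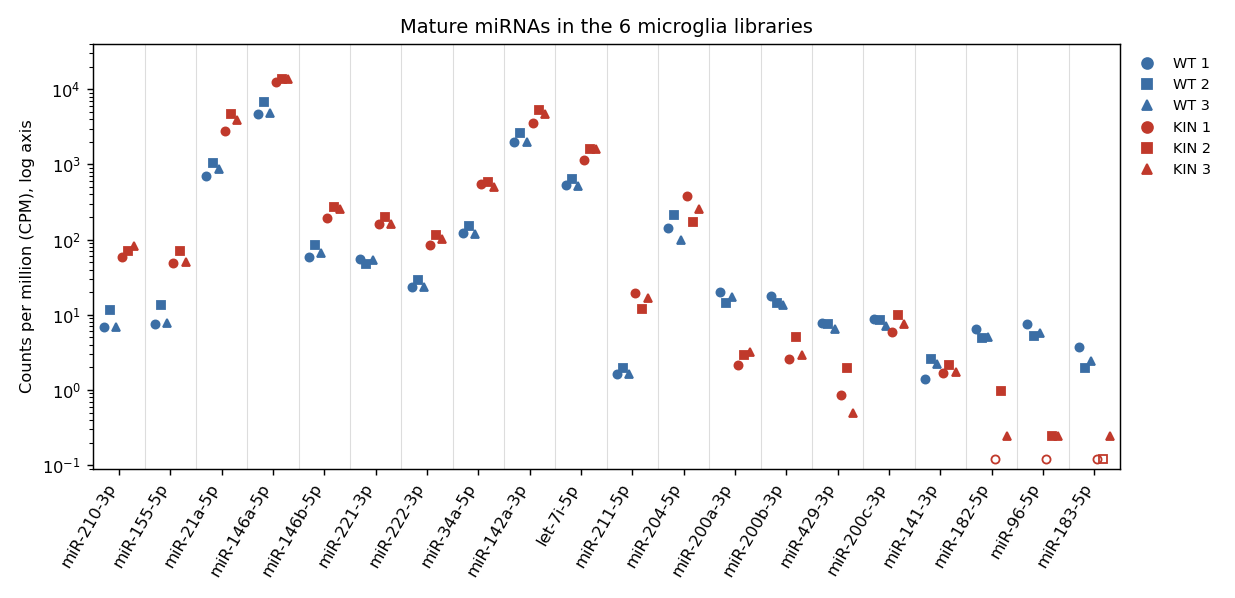
Levels of 20 mature miRNAs (x axis) in each microglia library as CPM on a log axis, WT in blue and KIN in red, with open symbols at the foot for libraries at 0. The 3 KIN libraries lay above the 3 WT libraries from miR-210-3p to miR-211-5p, overlapped them for miR-204-5p, miR-200c-3p and miR-141-3p, and lay below them for the other 6.

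miR-221-3p and miR-222-3p, neighbours on the X chromosome with a shared seed that repress cell cycle inhibitors, moved alike. miR-221-3p measured 54.9, 47.3 and 52.9 CPM in WT and 161, 200 and 161 CPM in KIN (1.75 ± 0.26, adjusted p = 0.00257). miR-222-3p measured 23.1, 28.7 and 23.4 CPM in WT and 84.5, 117 and 103 CPM in KIN (2.02 ± 0.27, adjusted p = 0.00162). The groups did not overlap for either. The members of the list that did not pass the test were miR-146a-3p (0.98), miR-223-3p (0.42), miR-132-3p (−0.02) and miR-212-3p (−0.21), the last a low miRNA at 0.326 to 2.04 CPM. The number of calls on this list depended on the scaling and was 9 with DESeq2, 6 with library totals and 5 with TMM factors taken from mature miRNAs, while 10 to 12 of its 13 members were positive under each of the scalings tried.

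The miRNAs with the largest increases were miR-211-5p, miR-551b-3p, miR-210-5p and miR-210-3p, of which miR-210-3p had the highest level. miR-210-3p, the miRNA that hypoxia-inducible factor induces (chr7:140801320-140801341, minus strand), measured 6.92, 11.4 and 6.92 CPM in WT and 58.9, 70.1 and 81.4 CPM in KIN. It was 8.42-fold higher (3.07 ± 0.31, adjusted p = 0.000338). miR-34a-5p, a target of the tumour suppressor p53 (chr4:150152930-150152951, plus strand, in the noncoding transcript Gm13067), measured 123, 150 and 117 CPM in WT and 549, 584 and 508 CPM in KIN and was 4.21-fold higher (2.08 ± 0.27, adjusted p = 0.00158). miR-551b-3p was called at no more than 0.407 CPM in WT and 1.28 to 3.14 CPM in KIN, so its log2 fold change of 3.15 ± 0.72 rests on few counts, and the call was lost without WT 1 or WT 3 and with DESeq2. Its summed counts were 3 in WT and 26 in KIN, a ratio of 10.1 per scaled library total with an exact 95% counting interval of 3.10 to 52.2. miR-210-5p had 2 counts in all WT libraries together and 18 in KIN, a ratio of 10.5 (2.51 to 93.3), and its call was lost with DESeq2, with the Snhg14 copies summed (adjusted p = 0.0755) and without WT 1, WT 3 or KIN 1. Intervals of this kind cover counting error only.

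Of the families that share a seed with many targets, the let-7 and miR-98 family, which restrains proliferation, was called higher in 3 of 9 members and lower in 0. This was 33.3%, against 13.9% of mature miRNAs and 2.05% of all features called higher. miR-98-5p was higher by 1.40 ± 0.28, let-7i-5p by 1.35 ± 0.28 and let-7f-5p by 1.06 ± 0.28. Every KIN library lay above every WT library for 8 of the 9, where 45.3% of mature miRNAs and 11.4% of all features did so. The median of the family was 0.79, against 0.61 for mature miRNAs. let-7b-5p was nearest to no change (340, 410 and 341 CPM in WT, 396, 424 and 402 CPM in KIN, 0.16 ± 0.25). In the miR-17-92, miR-106a-363 and miR-106b-25 clusters, which promote proliferation, 2 of 14 members were called higher, miR-18a-5p (1.26 ± 0.28) and miR-17-3p (1.13 ± 0.27). That share, 14.3%, was close to the 13.9% of mature miRNAs called higher. The median of these 14 was 0.77, close to that of mature miRNAs (0.61). None of these 5 calls held without WT 1, WT 3, KIN 2 or KIN 3, and let-7f-5p was also not called in the fit with the Snhg14 copies summed (adjusted p = 0.0677).

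Among myeloid miRNAs 1 of 5 tested was called higher (20%, against 13.9% of mature miRNAs). It was miR-142a-3p, at 2006, 2594 and 1985 CPM in WT and 3516, 5307 and 4704 CPM in KIN (1.04 ± 0.29, adjusted p = 0.0467). That call was lost in most other fits, for instance with the Snhg14 copies summed (adjusted p = 0.0755), and without WT 1, WT 3, KIN 2 or KIN 3 (up to 0.257). miR-223-3p measured 308, 398 and 374 CPM in WT and 377, 641 and 424 CPM in KIN (0.42 ± 0.29, adjusted p = 0.415). In bulk samples such as these, fewer cells of a type and less RNA per cell cannot be told apart.

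The miR-200 family, miRNAs that hold epithelial cells in their state by repressing Zeb1 and Zeb2, split by locus. The 3 members of the chromosome 4 cluster, which lies within the noncoding transcript Gm13648 and the gene Ttll10, were called lower. miR-200a-3p (chr4:156139368-156139389, minus strand) measured 20.3, 14.3 and 17.3 CPM in WT and 2.13, 2.90 and 3.19 CPM in KIN, 6.14-fold lower (−2.62 ± 0.35, adjusted p = 0.00158). miR-200b-3p and miR-429-3p were lower by log2 fold changes of −2.06 ± 0.36 and −2.66 ± 0.49, and neither was called without WT 1 (adjusted p = 0.0538 and 0.0567), nor was miR-429-3p without KIN 3. Gm13648 itself gave 1.85, 1.96 and 2.44 CPM in WT and 0, 0.242 and 0 CPM in KIN (−4.07 ± 0.86), a call lost with DESeq2 and without WT 1, WT 3 or KIN 3, at an adjusted p of up to 0.0819. Its counts summed to 26 in WT and 1 in KIN, a ratio of 22.3 (exact 95% counting interval 3.66 to 914). Since Gm13648 spans the hairpins, its counts may include reads of these miRNAs. The chromosome 6 members stood apart from this. miR-200c-3p (chr6:124695287-124695309) measured 8.77, 8.48 and 7.12 CPM in WT and 5.97, 9.91 and 7.60 CPM in KIN (−0.03 ± 0.33, adjusted p = 0.975), and miR-141-3p −0.12 ± 0.47. As the sequences above show, miR-200c-3p shares its seed with miR-200b-3p, and miR-141-3p with miR-200a-3p.

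The cluster of miR-183, miR-96 and miR-182, known from sensory and other specialised epithelia (chr6:30165961-30169731, minus strand), was called lower in all 3 members tested. miR-96-5p measured 7.61, 5.22 and 5.70 CPM in WT and 0, 0.242 and 0.245 CPM in KIN (−4.82 ± 0.63, adjusted p = 0.00158). miR-182-5p measured 6.46, 4.89 and 5.09 CPM in WT and 0, 0.967 and 0.245 CPM in KIN, and miR-183-5p 3.69, 1.96 and 2.44 CPM against 0, 0 and 0.245 CPM. With 77 counts in WT and 2 in KIN the ratio for miR-96-5p was 33.0 (exact 95% counting interval 8.84 to 277.5), and with 34 and 1 counts that for miR-183-5p was 29.2 (4.89 to 1185). Within WT, WT 2 was lowest for miR-96-5p, miR-182-5p, miR-183-5p and miR-200a-3p, and for each it still lay above all KIN libraries. miR-182-5p and miR-183-5p were not called without WT 1 (adjusted p = 0.0567 and 0.0677).

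Most copies of Snord115 and Snord116 were lower in KIN microglia. Of 104 Snord115 copies tested 71 were called lower (68.3%), and of 65 Snord116 copies 61 (93.8%), against 4.04% of all features. Summed over copies, Snord115 measured 641, 268 and 586 CPM in WT and 131, 75.4 and 85.8 CPM in KIN, 5.21-fold lower (−2.38 ± 0.37, adjusted p = 0.00470). Snord116 measured 526, 131 and 498 CPM in WT and 59.3, 19.1 and 34.6 CPM in KIN, 10.5-fold lower (−3.39 ± 0.53, adjusted p = 0.00481). In both families WT 2 was the lowest WT library and still lay above all KIN libraries. Without WT 1 neither sum was called (adjusted p = 0.0614 and 0.0620), and without any other single library both were. The host transcript Snhg14 measured 29.8, 5.87 and 26.9 CPM in WT and 2.56, 2.18 and 2.94 CPM in KIN (−3.03 ± 0.53) and had the same exception (adjusted p = 0.0567). Snord64, a C/D box snoRNA just beyond Snhg14 (chr7:59628556-59628622), was called lower at −1.60 ± 0.41, a call lost without WT 1, WT 3, KIN 2 or KIN 3 (adjusted p of up to 0.183), with the stricter filter on low counts and with the Snhg14 copies summed.

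The copies with the lowest fold changes had few counts. Gm25615, a Snord116 copy, had 33, 3 and 25 counts in WT and 0 in each KIN library, which makes it at least 17.4-fold lower with a floor of 3 counts over the KIN group. Snord116l17 measured 9.46, 3.26 and 8.75 CPM in WT and 0, 0 and 0.490 CPM in KIN, a ratio of 40.3 (exact 95% counting interval 10.9 to 338) from 94 and 2 counts. Such copies are uncertain as single features, because reads of identical copies can be split among them.

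**Figure D3:**
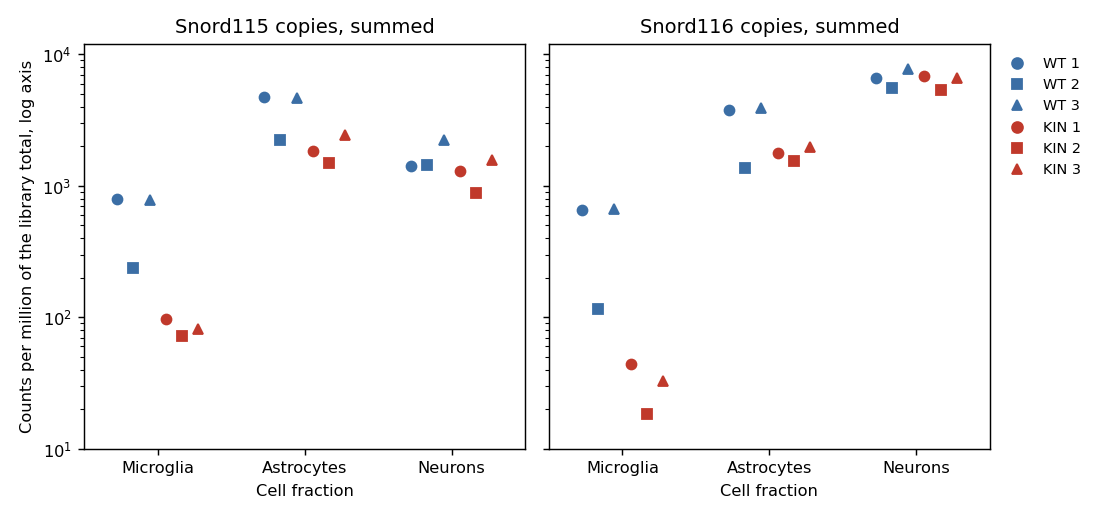
Summed copies of Snord115 and Snord116 as CPM of the unscaled library total on a log axis for the microglia, astrocyte and neuron fractions, with WT in blue and KIN in red. In microglia the KIN libraries lay below all WT libraries, and in neurons WT and KIN overlapped.

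The level of these snoRNAs in microglia was low beside the other fractions. As CPM of the unscaled library total, Snord116 measured 656, 115.7 and 667 in WT microglia and 44.2, 18.3 and 32.8 in KIN microglia, against 1364 to 3901 in astrocyte libraries and 5374 to 7721 in neuron libraries. In astrocytes WT measured 3768, 1364 and 3901 and KIN 1767, 1559 and 1963, so the groups overlapped, again with WT 2 lowest. The difference between the fractions in the effect of the mutation, tested as an interaction, was −2.74 ± 0.54 for summed Snord116 (adjusted p = 0.0150) and −1.48 ± 0.42 for summed Snord115 (adjusted p = 0.176).

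A second imprinted locus, Dlk1-Dio3 on chromosome 12, which expresses the noncoding transcripts Meg3 and Rian, snoRNAs and miRNAs from the maternal chromosome, was lower in part. Of 17 genes tested there 8 were called lower (47.1%, against 4.04% of all features) and 0 higher, and 6 of the 8 were snoRNAs. Rian (chr12:109570242-109628150) measured 241, 49.2 and 214 CPM in WT and 23.0, 27.1 and 28.7 CPM in KIN (−2.67 ± 0.46, adjusted p = 0.00595). AF357425, a snoRNA inside Rian, measured 66.9, 12.7 and 70.4 CPM against 3.41, 2.90 and 6.86 CPM. Meg3 measured 11.1, 3.91 and 11.4 CPM in WT and 2.99, 0.967 and 1.23 CPM in KIN (−2.48 ± 0.53). WT 2 was again between the other WT libraries and KIN, and without WT 1 Rian and AF357425 were not called (adjusted p = 0.0567 and 0.0519), nor was Meg3 without WT 1, WT 3, KIN 2 or KIN 3 (up to 0.101). The miRNAs of the locus were called in 0 of 14 with edgeR, with all 14 below 0 and a median of −1.20. Of the 14, 6 (42.9%) had an unadjusted p up to 0.05, against 8.64% of mature miRNAs and 14.3% of all features in that direction.

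Other snoRNAs moved little. Of 316 tested outside the Snhg14 transcript and Dlk1-Dio3, 0 were called higher and 1 lower, with a median of 0.20. The 1 called was Snord64, which lies just beyond Snhg14 and so next to the Snord116 copies. The 40 H/ACA box Snora genes, which guide pseudouridylation, gave 0 calls with edgeR and 0 unadjusted p-values up to 0.05. Of the 23 scaRNAs, which guide modification of spliceosomal RNAs in Cajal bodies, Scarna8 was called lower (109, 132 and 113 CPM in WT, 62.7, 50.8 and 44.4 CPM in KIN, −1.17 ± 0.27), a call lost with the replicate block and without WT 1, WT 3, KIN 2 or KIN 3 (adjusted p of up to 0.135). Spliceosomal and related snRNAs gave 0 calls among 221 with edgeR, and 6 had an unadjusted p up to 0.05. On the list of small RNAs of RNA processing 0 of 19 were called, and 3 reached an unadjusted p up to 0.05: Rn7s2 (−0.63) and Rn7s1 (−0.58) of the signal recognition particle and Snord118 (0.62), the U8 snoRNA.

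Cytoplasmic tRNAs were higher as a class. Of 176 isodecoders 174 had a fold change above 0, 119 (67.6%) reached an unadjusted p up to 0.05 in that direction against 9.36% of all features, and 11 were called. The median was 1.02. Every KIN library lay above every WT library for 72 (40.9%, against 11.4% of all features). WT 2 was at the level of KIN for several amino acids, and KIN 1 at that of WT for others. The arginine isodecoders, for instance, summed to 2616, 6981 and 2162 CPM in WT and 12416, 6513 and 6939 CPM in KIN. The glycine isodecoders summed to 13351, 12161 and 11126 CPM in WT and 12917, 23430 and 28215 CPM in KIN. The share of cytoplasmic tRNAs in all counts was 9.37%, 11.3% and 8.53% in WT and 14.0%, 15.7% and 16.6% in KIN, a difference of 5.69 points between groups that did not overlap. With 3 against 3 libraries the exact two-sided permutation test cannot go below its value here, 0.1 (0.213 after adjustment over 17 classes). Mature miRNAs took 5.17%, 5.09% and 5.99% of counts in WT and 5.86%, 8.45% and 8.36% in KIN, with overlapping groups (exact two-sided permutation p = 0.2). The size depended on the scaling: the median was 0.70 with library totals and 0.50 with factors from mature miRNAs, where 146 of 176 were above 0. Under these scalings the median of all features also moved, to −0.54 and −0.75, and the tRNA median stayed 1.17, 1.24 and 1.25 above it in this order, starting with TMM.

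**Figure D4:**
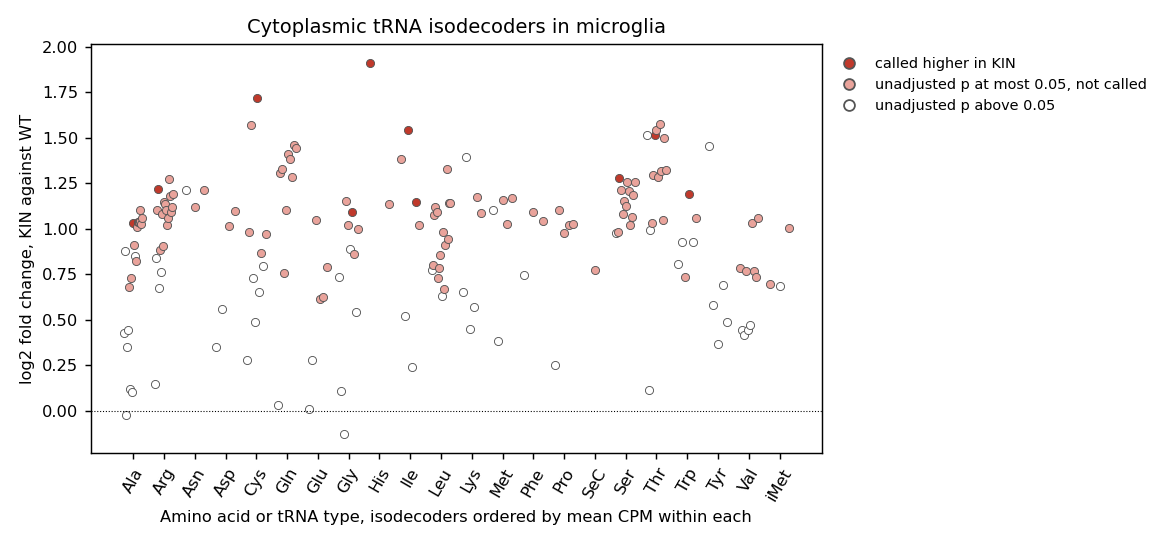
Each point is a cytoplasmic tRNA isodecoder at its log2 fold change of KIN against WT (y axis), grouped by amino acid (x axis) and ordered within it by mean CPM, filled by the outcome of the test. Of the 176 points 2 lie below 0, and the 11 called isodecoders are spread over 9 amino acids.

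By median, the increase was shared among the amino acids. In KIN 1, however, the summed glycine, cysteine and tryptophan isodecoders lay within the range of the WT libraries. Median log2 fold changes ran from 0.58 for tyrosine (5 isodecoders, 0 at an unadjusted p up to 0.05) to 1.32 for threonine and glutamine and 1.52 for histidine, which had only 2. The called isodecoders were Ala-AGC-5, Ala-AGC-10, Arg-CCG-1, Cys-GCA-7, Gly-GCC-4, His-GTG-3, Ile-AAT-2, Ile-AAT-4, Ser-CGA-3, Thr-AGT-4 and Trp-CCA-3. tRNA-Gly-GCC-4 measured 682, 952 and 546 CPM in WT and 1450, 1469 and 1718 CPM in KIN (1.09 ± 0.29, adjusted p = 0.0389). tRNA-Cys-GCA-7 measured 6.00, 6.52 and 5.29 CPM in WT and 13.2, 19.3 and 25.5 CPM in KIN (1.72 ± 0.33, adjusted p = 0.00864). tRNA-Glu-CTC-1, the isodecoder with the highest count, was at 12098, 21465 and 11076 CPM in WT and 28081, 24949 and 24015 CPM in KIN (0.79, adjusted p = 0.153). Only Cys-GCA-7, Ile-AAT-4 and Trp-CCA-3 were still called when the Snhg14 copies were summed, and without WT 1 or WT 3 none of the 3 was, nor was any of the other 8. Reads of similar isodecoders may be split among them.

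Mitochondrial tRNAs were called in 0 of 22 with edgeR, but all 22 were above 0. Of these 10 (45.5%) reached an unadjusted p up to 0.05, against 9.36% of all features in that direction. They were led by mt-Tr (329, 475 and 257 CPM in WT, 784, 730 and 520 CPM in KIN, 0.94 ± 0.30, adjusted p = 0.0798). With factors from mature miRNAs 17 of 22 were above 0. The 67 ribosomal RNA features gave 0 calls with edgeR and 11 (16.4%, against 9.36% of all features) at an unadjusted p up to 0.05, all higher. Among them was the 5S gene n-R5s129 (0.80 ± 0.29, adjusted p = 0.118). The share of rRNA in all counts lay the other way, at 3.95%, 2.33% and 3.71% in WT and 1.99%, 2.35% and 2.43% in KIN, a difference of −1.07 points with overlapping groups (exact two-sided permutation p = 0.3). The 10 most abundant features, among them the snoRNA hosts Gas5 and Snhg1, were not called.

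Of 5 protein-coding genes called higher, the one that holds no called miRNA hairpin was Apoe, which encodes the lipid carrier apolipoprotein E and marks the disease-associated state of microglia. It measured 8.54, 10.8 and 6.51 CPM in WT and 33.3, 30.9 and 28.7 CPM in KIN, 3.62-fold higher (1.86 ± 0.30, adjusted p = 0.00411), and its call was lost without WT 1 (adjusted p = 0.0538). The other 4 protein-coding genes called higher, Vmp1, Dvl2, Tlcd2 and Aopep, each hold a called miRNA hairpin (Mir21a, Mir324, Mir22, and Mir24-1 with Mir27b), so their counts may include reads of the miRNA. Without WT 1 only Vmp1 of these 5 was called. Of the disease-associated microglia list, most of which the study named from sister libraries of these cells and which is therefore no independent evidence, 19 of 24 were tested, 1 was called (5.26%, against 2.05% of all features called higher) and 7 (36.8%) reached an unadjusted p up to 0.05, all higher, against 9.36% of all features. Clec7a, a receptor for fungal glucan, had 0.923, 0.326 and 0.407 CPM in WT and 1.28, 4.84 and 1.96 CPM in KIN (2.26 ± 0.65, adjusted p = 0.0557), and Spp1, encoding osteopontin, 2.13 ± 0.63 (adjusted p = 0.0590). The median of the list was 0.74, against −0.36 for protein-coding genes.

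The identity of the fraction was checked with marker lists. All 16 microglia mRNAs were tested and 0 were called with edgeR. Of the 16, 4 (25%) had an unadjusted p up to 0.05, all lower, against 14.3% of all features in that direction. These were P2ry12, the purinergic receptor of resting microglia (18.2, 18.3 and 16.7 CPM in WT, 5.97, 8.46 and 10.3 CPM in KIN, −1.08 ± 0.31, adjusted p = 0.0541), Sparc, Selplg and Cx3cr1. The summed level of the 16 ran from 161 to 191 CPM in WT and from 134 to 155 CPM in KIN. Red blood cell mRNAs summed to at most 6 counts in any library.

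Neuronal RNA was present and lower in KIN. The summed neuron mRNAs measured 22.8, 7.17 and 26.1 CPM in WT and 2.99, 5.08 and 3.68 CPM in KIN, 6 of the 15 markers were at 0 in every KIN library, 6 were tested, and Snap25, a synaptic vesicle fusion protein, was called lower (2.54, 0.652 and 3.66 CPM against 0, 0.242 and 0.245 CPM, −3.48 ± 0.85), a call lost with DESeq2, when any 1 KIN library was left out (adjusted p of up to 0.106) and with the Snhg14 copies summed (0.0528). Of 10 neuronal miRNAs 2 were called lower (20%, against 2.62% of mature miRNAs and 4.04% of all features) and 0 higher, with a median of −0.68. miR-124-3p, which drives neuronal differentiation, measured 80.3, 42.7 and 67.0 CPM in WT and 31.6, 27.6 and 29.7 CPM in KIN (−1.10 ± 0.29, adjusted p = 0.0384, up to 0.182 without WT 1, WT 3, KIN 2 or KIN 3). miR-153-3p measured 4.38, 1.96 and 4.07 CPM against 0.854, 0.725 and 0.980 CPM, a call lost without any 1 library other than WT 2 (adjusted p of up to 0.168) and with DESeq2, the replicate block and the Snhg14 copies summed. miR-9-5p, of neural progenitors and astrocytes, measured 150, 83.8 and 163 CPM against 70.8, 64.8 and 57.3 CPM (adjusted p = 0.0539). miR-92b-3p, a miRNA of neural progenitors named after its value was seen, was lower at 40.4, 7.17 and 39.5 CPM in WT and 2.99, 2.66 and 4.17 CPM in KIN (−3.14 ± 0.55, adjusted p = 0.00595, 0.0567 without WT 1). These RNAs share the order of the libraries with Snord115, Snord116 and Rian, with WT 2 nearest to KIN. Their part in the decrease of those snoRNAs was not tested.

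**Figure D5:**
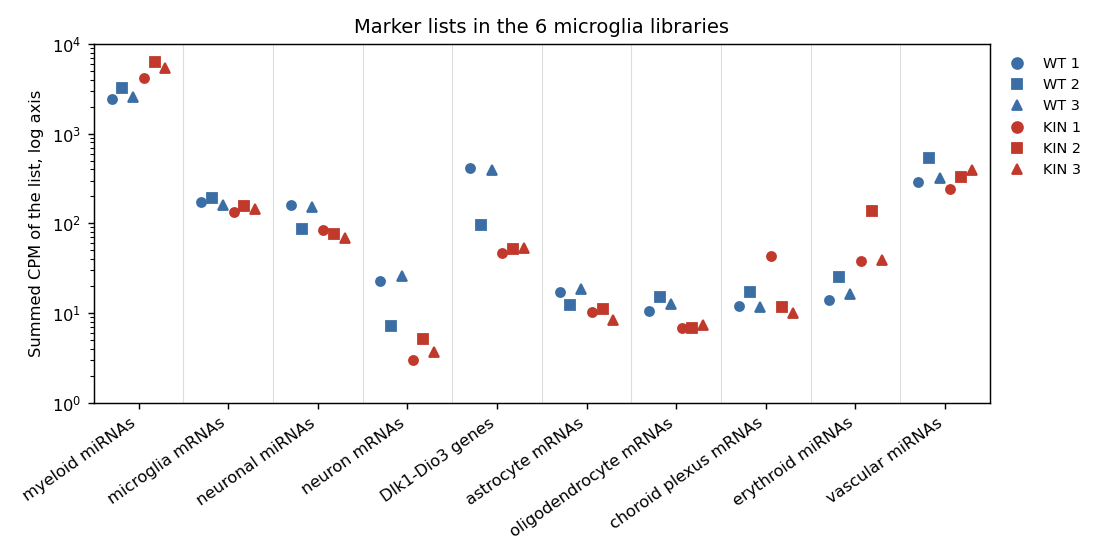
Summed CPM of marker lists (x axis) in each microglia library on a log axis, WT in blue and KIN in red. Neuron mRNAs and Dlk1-Dio3 genes were lowest in KIN and, within WT, in WT 2, while choroid plexus mRNAs stood out in KIN 1 and erythroid miRNAs in KIN 2.

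Markers of choroid plexus and red blood cells were followed library by library. miR-211-5p, abundant in pigmented and choroid epithelium (chr7:63855579-63855600, in the Trpm1 gene), measured 1.62, 1.96 and 1.63 CPM in WT and 19.2, 11.8 and 16.9 CPM in KIN (3.19 ± 0.37, adjusted p = 0.00119). miR-204-5p, with the same seed and from the Trpm3 gene, measured 141, 213 and 97.9 CPM in WT and 379, 173 and 253 CPM in KIN (0.83 ± 0.35, adjusted p = 0.168). The list of choroid plexus and ciliated epithelium miRNAs did not move as a whole. Of its 6 members tested 1 was called higher and 0 lower, 3 were above 0 and 3 below, and the median was 0.08. The lowest, miR-34b-3p, was at −1.40 ± 0.52, and its difference from the effect in astrocytes was −2.61 ± 0.56. Ttr, the transthyretin gene that defines choroid plexus, measured 5.77, 8.15 and 6.11 CPM in WT and 23.0, 6.04 and 5.88 CPM in KIN, and the choroid plexus list summed to 11.6 to 17.3 CPM in WT and 42.7, 11.6 and 10.0 CPM in KIN. miR-211-5p was high in all 3 KIN libraries and was called whichever library was left out. The erythroid miRNAs miR-451a (13.2, 21.8 and 15.3 CPM in WT, 34.6, 123 and 32.6 CPM in KIN) and miR-486a-5p were called higher (1.93 ± 0.46 and 2.37 ± 0.59), highest in KIN 2, and neither was called without KIN 2, WT 1 or WT 3 (adjusted p of up to 0.206 and 0.221). The astrocyte and oligodendrocyte mRNA lists gave 0 calls with edgeR, and 2 of 3 members tested in each had an unadjusted p up to 0.05, all lower. The 4 oligodendrocyte and 5 vascular miRNAs gave 0 calls with edgeR, with 1 (miR-338-3p, 0.98) and 0 at an unadjusted p up to 0.05.

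The astrocyte fraction of the same study was the closest comparison. The effect of the mutation differed between microglia and astrocytes for 69 of 7908 features (0.873%), with 59 lower (0.746%) and 10 higher (0.126%) in microglia relative to astrocytes, and 36 of the 59 were snoRNAs. This fit treated the 12 libraries as independent, although the sequential isolation took both fractions from single brains. With a replicate block within each genotype 127 features were called, 66 of them among the 69. miR-210-3p was changed by 3.07 in microglia and 0.55 ± 0.36 in astrocytes (difference 2.51 ± 0.53, adjusted p = 0.0174), and miR-34a-5p by 2.08 and 0.41 ± 0.23 (1.63 ± 0.40, adjusted p = 0.0399). Apoe was higher by 1.86 in microglia and was −0.82 ± 0.27 in astrocytes (2.63 ± 0.46, adjusted p = 0.00789). miR-200c-3p, near 0 in microglia, was changed by −5.87 ± 0.85 in astrocytes (difference 5.79 ± 0.94, adjusted p = 0.00320), and miR-200a-3p by −2.62 and −6.84 ± 0.68 (4.17 ± 0.87, adjusted p = 0.0174). In astrocyte KIN libraries these miRNAs had 1 and 2 counts in all, against 89 and 305 in WT, so the sizes of both differences depend on the prior count. The ratios of WT to KIN in astrocytes were 91.8 (exact 95% counting interval 16.1 to 3667) and 157 (43.2 to 1305). For miR-155-5p (difference 1.29, adjusted p = 0.452), miR-21a-5p (1.44, adjusted p = 0.158) and miR-146a-5p (0.49, adjusted p = 0.834) no difference between the fractions passed the test. Between 4 and 260 differences were called when any 1 of the 12 libraries was left out, the fewest without microglia KIN 2 and the most without microglia WT 2.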

How the data were processed

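Small RNA libraries were prepared with unique molecular identifiers from equal amounts of RNA and sequenced as single reads. Per the study's methods, the authors trimmed adapters with Cutadapt 4.6, aligned reads with Bowtie2 2.4.4 to miRNA, tRNA, piRNA, ncRNA and cDNA references of mm39 in turn, and counted them with HTSeq 2.0.2 without strand. The deposited values used here are raw counts per feature as the authors made them. Without strand, sense and antisense reads cannot be told apart, and 101 pairs of features had nearly the same counts in every microglia library (within 5% or 3 counts). Of these, 29 pair features of different classes on 1 chromosome, such as Mir21a with Vmp1 and Snord68 with Rpl13, whose reads may be counted in both, and the other 72 include copies of 1 gene family and pairs of low counts that may match by chance. Columns of the authors' own fold changes and p-values were not used, nor were 36 other per-library columns.

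Of 203513 deposited features, 407 tRNA gene copies were summed to 218 isodecoders and transcripts to genes, and those reaching 5 counts in 2 or more microglia libraries were analysed with edgeR 4.0.16 (glmQLFit and glmQLFTest, TMM factors, genotype as the only term, R 4.3.3). DESeq2 1.42.0 was an alternative. Shares of RNA classes were compared with an exact permutation test. Gene annotation was GENCODE vM39 on GRCm39. Features that could be named were the 12 called features with the largest changes in each direction, the 10 most abundant and up to 4 members with the smallest p of each list or class. Members of miRNA lists, by level, and the 8 largest differences between fractions could also be named. The text gives only some of these features. Members and lists were chosen with earlier results of these data known. Other scalings, filters, feature definitions, a replicate block and fits without each library were tried. The fit was tested on simulated data for microglia KIN against WT with 4588 features, where it recovered 50.5% of features changed by 1.5 and 78.9% of those changed by 2 on the log2 scale, with 5 false calls. The simulation gave all features the same dispersion and had no library that stood apart as WT 2 and KIN 1 did. Its rates therefore do not carry over to these libraries. Library totals of 3148211 to 4316748 counts limit the precision for features of few counts.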

Additional observations from a re-analysis of the deposited data

Results flagged for a closer look

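The effect of the knock-in differed between microglia and astrocytes for 69 features by the interaction test. Each value here is the log2 fold change of KIN against WT in microglia minus that in astrocytes. It was −7.06 for Gm25615 and −4.86 for Snord116l17, both Snord116 copies, −4.59 for the snoRNA Gm26502, −6.58 for Gm23787, a snoRNA of the Dlk1-Dio3 locus, and −2.74 for the summed Snord116 copies. Gm25615 and Gm23787 had 0 counts in every KIN microglia library, so the sizes of their differences depend on the prior count. The same holds for miR-200c-3p and miR-200a-3p, with 1 and 2 counts in all KIN astrocyte libraries.

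For miRNAs the difference was 5.79 for miR-200c-3p, 5.20 for its hairpin Mir200c, 4.17 for miR-200a-3p, 2.51 for miR-210-3p, 1.63 for miR-34a-5p and −3.63 for miR-92b-3p. It was 2.63 for Apoe and 4.97 for Fbxw2, a gene with too few counts to be tested in microglia alone. In KIN astrocytes Fbxw2 measured 0.291, 0 and 0 and Mir200c 0, 0 and 0.269, as CPM of the unscaled library total. The sizes of their differences therefore also depend on the prior count. The number of features whose effect differed between the fractions ranged from 4 to 260 when single libraries were left out.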

How the results depend on the processing

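The 321 calls became 492 without a filter on low counts, 150 with 10 counts required in 3 libraries and 101 with the Snhg14 copies summed. Leaving out 1 library gave 30 to 968 calls, with 30 without WT 1, 968 without WT 2, 107 without WT 3, 367 without KIN 1, 117 without KIN 2 and 102 without KIN 3. The share of calls that were higher, 33.6% in the main comparison, was 15.1% with library totals, 5.54% with factors from mature miRNAs, 45.9% with DESeq2 and 19.8% among small RNA classes. The tRNA median of 1.02 was 0.70 with library totals, 0.50 with factors from mature miRNAs, 0.88 without a filter, 0.88 with the stricter filter and 0.76 among small RNA classes, and 0.72 to 1.40 without single libraries. The miRNA median of 0.61 was 0.25, 0.034, 0.31, 0.50 and 0.31 in the same order, 0.46 with features as deposited, and 0.45 to 0.70 without single libraries. The 69 differences from astrocytes were 131 with DESeq2, 30 with the stricter filter, 127 with the replicate block and 19 with the Snhg14 copies summed, and 4 to 260 without single libraries.

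Replicate numbers did not pair the samples: deviations from the group means of same-numbered microglia libraries correlated at −0.14, −0.22 and 0.17. With the replicate block 267 features were called in microglia. None of the up to 95 called features that could be named and were tested changed sign under an alternative, but uncalled features did. With factors from mature miRNAs, 146 of 176 tRNA isodecoders, 199 of 382 mature miRNAs and 17 of 22 mitochondrial tRNAs were above 0, against 174, 285 and 22 in the main comparison. The summed copies, features counted once per near-identical group and small RNA classes alone were chosen as alternatives after seeing the data. Where a call was lost, the cause was not tested.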
